A study of Mus musculus with 2 samples.

Results

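Innate immune cells recognise microbes through pattern recognition receptors, and the 41 genes described here are those receptors and the adaptors and enzymes that work with them: Toll-like receptors, lipopolysaccharide (LPS) handling proteins, TIR-domain adaptors, kinases and ubiquitin ligases, NOD receptors, inflammasome genes and the RIG-I-like receptor adaptor. They were chosen by a list of gene symbols and found by symbol in the annotation of the array. Of the 41 genes, 37 had a probe set, out of 19505 named genes measured in all. Irak1, Irak4, Traf3 and Ripk2 had no probe set under their symbol, Entrez ID or accession and were not analysed here.

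RNA came from macrophages grown out of mouse bone marrow, with 25 ng/mL of the growth factor M-CSF given on days 0 and 3 and the cells used from day 5. The array labelled LysM (+);MC4RTB/TB, here LysM(+), was compared with the array labelled MC4RTB/TB, here TB/TB, so both cultures carry the homozygous TB allele of the melanocortin 4 receptor gene and differ by LysM in the label. As background, LysM is the lysozyme gene Lyz2, widely used to drive Cre recombinase in myeloid cells, and a TB allele is one blocked by a cassette that Cre can remove; the labels state neither, and they give no age, sex or number of animals for either culture. Values are log2 expression values made with RMA, and each genotype had 1 array, so no test was possible. Every difference is LysM(+) minus TB/TB and describes these 2 arrays without a replicate check. Folds take the scale as log2, inferred from the method's name.

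Toll-like receptors (TLRs) sit at the cell surface, where they bind bacterial lipids and proteins, or in endosomes, where they bind nucleic acids. Ligand binding recruits the adaptors MyD88 or TRIF, which act through IRAK kinases, TRAF ligases and the TAK1 and IKK kinases to switch on NF-kB and interferon regulatory factors. NOD receptors and the RIG-I-like receptors also signal to these factors from the cytosol, whereas inflammasomes activate caspase-1. Macrophages are among the cells known for high expression of these genes.

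Macrophage marker expression in both cultures was read from 8 measured genes, among them Adgre1, Csf1r and Mrc1. All 8 exceeded the brightness floor in both cultures, and their log2 values averaged 16.04 in LysM(+) and 16.25 in TB/TB. This does not set macrophages apart from related cells, since 8 of 8 monocyte and 10 of 11 neutrophil markers also reached the floor. The brightness floor used throughout is a log2 value of 6.12, the median over named probe sets, and a gene was counted as past a fold only if its brighter value reached it. Of the lists measured here, cell division differed most: 23 of 23 of its genes were at least 1.5-fold higher in LysM(+), and their median difference was 2.63. Of all genes at the floor, 10.9% were higher by that fold. The lists were chosen with earlier results of these data known, so this contrast is a description only. Of the 23, 19 reached the floor on both arrays. Cdc20, at 6.21 in LysM(+) and 4.28 in TB/TB, lay within the range of the background controls on both. Neutrophil markers averaged 10.21 in LysM(+) and 9.67 in TB/TB, with 5 of 11 at least 1.5-fold higher and 10 of 11 reaching the floor. Of those 5, Elane and Retnlg in TB/TB, and Cxcr2 on both arrays, lay within the range of the background controls. By any amount 9 of the 11 were higher, while Mpo (-0.30) and Csf3r (-0.57) were lower. Monocyte markers averaged 8.98 in LysM(+) and 8.60 in TB/TB, with 1 of 8 at least 1.5-fold higher. Dendritic cell, B cell, T and NK cell and progenitor markers had no gene past that fold (0 of 36). Only 11 of the 36 reached the floor and could be counted. Of 6 stromal cell markers, 5 reached the floor and 2 were at least 1.5-fold lower (40% of the 5, against 5.16% of all genes at the floor). The 2 were Col1a2 (-0.606) and Postn (-0.591), just past the log2 threshold of 0.585. The part of these cell and cycle differences in the results below was not tested, and in RNA from a whole culture fewer cells of a type and less RNA per cell cannot be told apart.

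Pattern recognition genes were expressed on both arrays and differed little between them. Of the 37, 35 reached the brightness floor, all 35 on both arrays, and 34 lay above the whole range of the background control probe sets, which reached 6.81. Of the 35 genes, 2 were at least 1.5-fold higher in LysM(+), Tab3 and Pycard, and 2 at least 1.5-fold lower, Aoah and Tlr9. That is 11.4% of the 35, against 16.1% of the 10137 named genes at the floor. By direction, 5.71% of the 35 were higher, against 10.9% of all genes at the floor, and 5.71% were lower, against 5.16%. The share past 1.5-fold was thus near that of the arrays as a whole, and 31 of the 35 genes stayed within 1.5-fold. Since 33 of the 35 had a brighter value of 8 or more, the comparison was repeated for such genes: 12.1% of 33 members passed 1.5-fold against 14.8% of 6890 genes, with 6.06% higher against 11.3% and 6.06% lower against 3.5%. At 2-fold, 0 members were higher, where 3.25% of genes at the floor were, and 1 was lower, Aoah, where 0.858% of genes were.

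By any amount, the value was lower on the LysM(+) array for 24 of 37 genes (64.9%, against 50.7% of all named genes) and higher for 13. The median difference was -0.11, against -0.0062 for all named genes, and it was -0.19 after quantile normalization and -0.18 after loess. Among genes at the floor, 65.7% of the 35 members were lower against 42.9% of all 10137, and the medians were -0.11 for the members and 0.07 for all genes. The lean was not particular to these genes: 7 of 8 macrophage markers were also lower by any amount, with a median of -0.19. The median size of a difference, in either direction, was 0.20 for the 35 members and 0.26 for the 10137 genes.

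**Figure D1:**
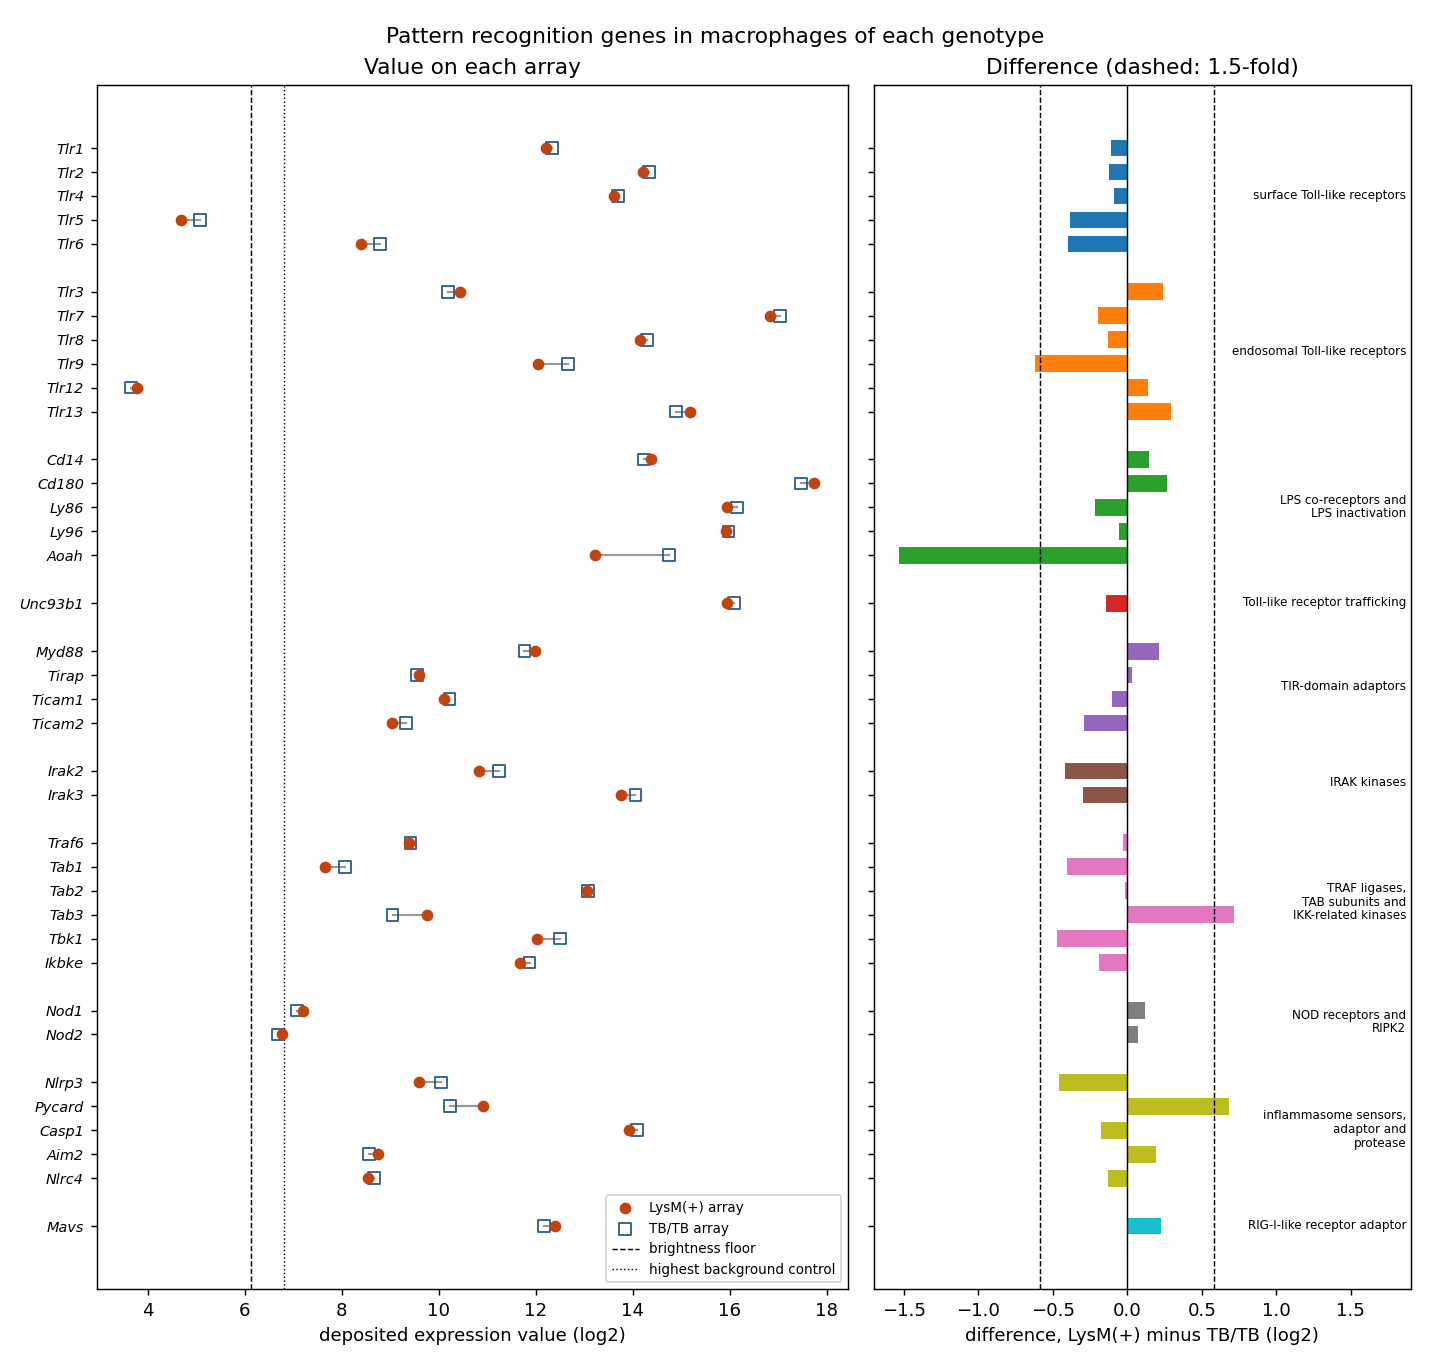
Left, log2 values of the 37 measured genes in LysM(+) (filled circles) and TB/TB (open squares), grouped by role, with the brightness floor at 6.12 and the highest background control at 6.81. Right, the log2 difference, LysM(+) minus TB/TB, with dashed lines at 1.5-fold; Aoah (-1.53) and Tlr9 (-0.62) pass the line on the lower side, Tab3 (0.72) and Pycard (0.68) on the higher side.

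**Figure D2:**
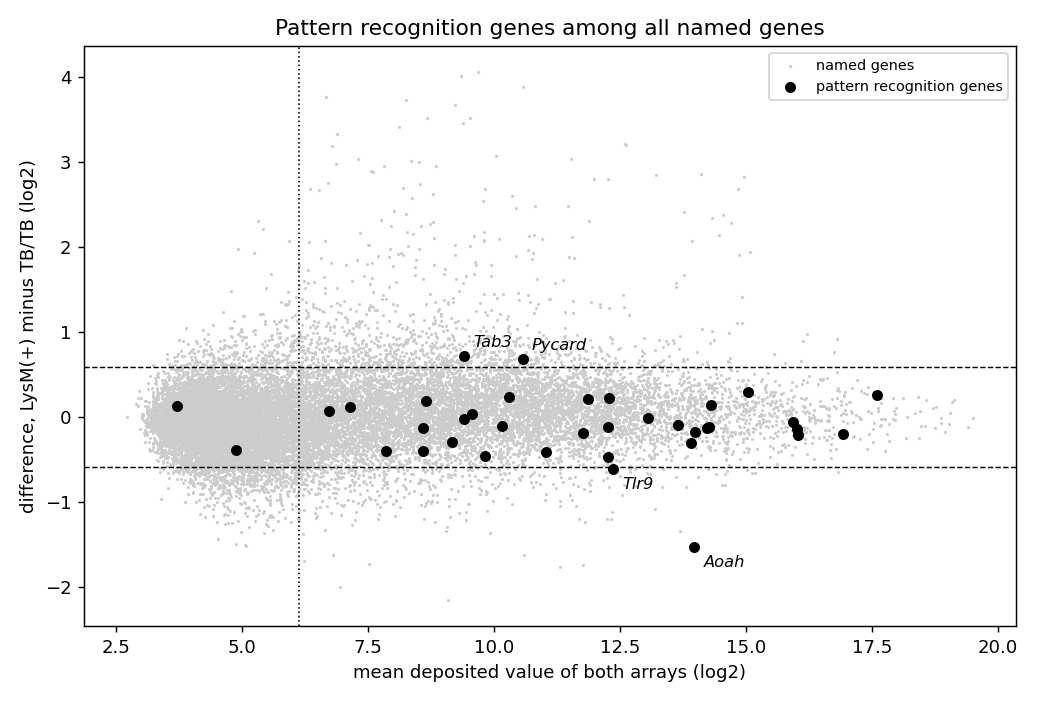
Each point is a gene, with the mean log2 value of both arrays on the x axis and LysM(+) minus TB/TB (log2) on the y axis. The pattern recognition genes (black) lie inside the cloud of 19505 named genes (grey), with Aoah as the exception at -1.53; dashed lines mark 1.5-fold and the dotted line the brightness floor.

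The promoters shown are those of the 4 genes past 1.5-fold. Each runs from 250 bases before to 50 bases after the RefSeq start, read 5′ to 3′ on the gene's strand, build GRCm38.p6. Capitals mark matches, on either strand, to a PU.1 core (GAGGAAG), an interferon-stimulated response element (GAAANNGAAA), a gamma-activated site (TTCNNNGAA), a kappa B site (GGGNNNTTCC) or an E2F site (TTCCCGC). The positions are chr13:20793863-20794162 (+) for Aoah, chr9:106222348-106222647 (+) for Tlr9, chrX:85573772-85574071 (+) for Tab3 and chr7:127993818-127994117 (-) for Pycard.
Aoah: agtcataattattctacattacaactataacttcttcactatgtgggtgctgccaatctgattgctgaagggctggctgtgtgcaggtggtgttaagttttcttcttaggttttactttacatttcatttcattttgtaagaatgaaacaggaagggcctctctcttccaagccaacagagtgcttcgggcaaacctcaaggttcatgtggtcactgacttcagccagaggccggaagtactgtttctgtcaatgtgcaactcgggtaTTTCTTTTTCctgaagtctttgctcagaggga
Tlr9: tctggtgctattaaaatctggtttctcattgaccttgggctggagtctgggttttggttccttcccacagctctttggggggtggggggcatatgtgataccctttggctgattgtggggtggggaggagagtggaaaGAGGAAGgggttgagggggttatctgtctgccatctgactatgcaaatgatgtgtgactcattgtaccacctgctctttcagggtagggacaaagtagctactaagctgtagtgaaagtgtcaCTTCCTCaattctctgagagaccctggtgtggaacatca
Tab3: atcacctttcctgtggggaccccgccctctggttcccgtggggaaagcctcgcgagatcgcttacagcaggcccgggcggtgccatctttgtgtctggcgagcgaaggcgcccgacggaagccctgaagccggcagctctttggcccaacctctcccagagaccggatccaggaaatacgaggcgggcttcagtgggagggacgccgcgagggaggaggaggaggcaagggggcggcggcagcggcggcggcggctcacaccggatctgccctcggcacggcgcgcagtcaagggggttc
Pycard: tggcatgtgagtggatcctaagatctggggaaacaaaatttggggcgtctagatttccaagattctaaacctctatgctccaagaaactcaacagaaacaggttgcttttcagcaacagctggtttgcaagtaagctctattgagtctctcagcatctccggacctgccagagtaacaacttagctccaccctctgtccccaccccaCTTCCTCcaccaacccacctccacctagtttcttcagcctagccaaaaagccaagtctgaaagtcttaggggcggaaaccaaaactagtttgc

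No motif was found in all 4 windows. Aoah held 1 interferon-type match, at bases 19 to 28 after the start. Tlr9 held PU.1 cores at -112 to -106 and at 12 to 18, and Pycard held 1 at -43 to -37. Tab3 held no match to these motifs. RefSeq promoters were found for 33 of the 41 genes, 42 windows in all. PU.1, the factor that specifies macrophages, had a core in 11 of the 42 windows (26.2%), against 13.6% of all 32851 promoters in the table. The interferon-type element was in 3 (7.14%, against 3.44%): those of Aoah, Myd88 and Tlr6, whose differences were -1.53, 0.21 and -0.40. The gamma-activated site was in 5 (11.9%, against 8.3%), the kappa B site in 5 (11.9%, against 5.56%) and the E2F site in 0 (against 4.6%). A match describes letters only and does not show that a factor binds.

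Among the genes of LPS handling, Aoah stood out. Aoah encodes acyloxyacyl hydrolase, the enzyme that inactivates LPS by removing its acyl chains. It had a log2 value of 13.21 in LysM(+) and 14.74 in TB/TB, 2.89-fold lower in LysM(+), and ranked 9 from the lowest among 10137 genes. The proteins that bind LPS did not follow it. Cd14, the co-receptor that passes LPS on, had values of 14.37 in LysM(+) and 14.23 in TB/TB. Ly96, which encodes MD-2, the LPS-binding partner of TLR4, had 15.91 in LysM(+) and 15.97 in TB/TB, and Tlr4 itself 13.60 in LysM(+) and 13.69 in TB/TB. The LPS receptor complex thus differed by 0.14 at most, against 1.53 for the enzyme. Cd180 and Ly86 encode a receptor related to TLR4 and its partner MD-1, which form a complex. Cd180 had values of 17.73 in LysM(+) and 17.47 in TB/TB, while Ly86 had 15.93 in LysM(+) and 16.15 in TB/TB, so the partners leaned opposite ways, by 0.26 and -0.22.

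The 4 surface Toll-like receptors at the floor all had slightly lower values in LysM(+), and none passed 1.5-fold (0 of 4). By any amount, 42.9% of all genes at the floor were lower. The differences of the 4 receptors ran from -0.40 to -0.09 with a median of -0.12. Tlr2, the lipoprotein receptor, had values of 14.21 in LysM(+) and 14.33 in TB/TB. Its alternative partners are Tlr1, for triacylated lipoproteins, and Tlr6, for diacylated ones. Tlr1 had 12.21 in LysM(+) and 12.33 in TB/TB, and Tlr6 had 8.39 in LysM(+) and 8.79 in TB/TB, 1.32-fold apart. Tlr1 and Tlr6 both lie on chromosome 5 and are close in sequence, so their probes may share signal. Tlr5, the flagellin receptor, was below the floor on both arrays at 4.69 in LysM(+) and 5.07 in TB/TB and cannot be told from background.

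Of the 5 endosomal receptors at the floor, 2 were higher and 3 lower by any amount, with a median difference of -0.13. With Tlr12, which was under the floor, the median over 6 was 0.0026, or -0.024 after quantile normalization or loess. Tlr9, which binds unmethylated CpG DNA, was the member past 1.5-fold: it had 12.05 in LysM(+) and 12.67 in TB/TB, 1.53-fold lower in LysM(+) and only just beyond the threshold. The RNA receptors stayed within 1.5-fold, and they leaned both ways. Tlr7, for single-stranded RNA, had 16.83 in LysM(+) and 17.03 in TB/TB, and its X-linked relative Tlr8 had 14.16 in LysM(+) and 14.29 in TB/TB. Tlr13, which binds bacterial ribosomal RNA in mice, had 15.19 in LysM(+) and 14.89 in TB/TB, and Tlr3, for double-stranded RNA, had 10.43 in LysM(+) and 10.18 in TB/TB. These RNA receptors lay between -0.20 and 0.30. Unc93b1, the chaperone that carries the nucleic acid receptors to endosomes, had 15.95 in LysM(+) and 16.09 in TB/TB. Tlr12, a receptor for the protozoan protein profilin in mice, was below the floor at 3.78 in LysM(+) and 3.65 in TB/TB.

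The TIR-domain adaptors, which couple the receptors to both signalling arms, differed by 0.29 at most. Myd88, the adaptor of most Toll-like receptors, had 11.98 in LysM(+) and 11.76 in TB/TB. Tirap, which bridges MyD88 to TLR2 and TLR4, had 9.58 in LysM(+) and 9.55 in TB/TB, a difference that turned negative after quantile normalization (-0.03) and loess (-0.06). On the other arm, Ticam1, encoding TRIF, had 10.12 in LysM(+) and 10.22 in TB/TB, and Ticam2, encoding the bridging adaptor TRAM, had 9.03 in LysM(+) and 9.32 in TB/TB.

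Kinases and ligases below the adaptors were mostly lower in LysM(+), 7 of 8 by any amount, with Tab3 as the exception. Of all genes at the floor, 42.9% were lower by any amount. None of the 7 passed 1.5-fold, and Tab2 (-0.01) and Traf6 (-0.03) hardly differed. Irak2, a kinase that sustains TLR signalling, had 10.82 in LysM(+) and 11.24 in TB/TB, and Irak3, encoding IRAK-M, the inhibitor of the family in macrophages, had 13.75 in LysM(+) and 14.05 in TB/TB. Activator and inhibitor thus shared a direction, at -0.41 and -0.30. Tbk1, the kinase that activates IRF3, had 12.03 in LysM(+) and 12.50 in TB/TB, 1.39-fold apart, and its relative Ikbke had 11.68 in LysM(+) and 11.87 in TB/TB. The ubiquitin ligase gene Traf6 was nearly equal, at 9.39 in LysM(+) and 9.41 in TB/TB. The TAB genes encode subunits of the TAK1 kinase complex, and their differences ran from 0.72 to -0.40. Tab3 had 9.76 in LysM(+) and 9.04 in TB/TB, 1.65-fold higher in LysM(+). Tab2, the closest relative of Tab3 and like it a ubiquitin-binding subunit, had 13.06 in LysM(+) and 13.07 in TB/TB, and Tab1, the activating subunit, had 7.66 in LysM(+) and 8.06 in TB/TB, 1.32-fold apart.

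Of the 5 inflammasome genes, 1 passed 1.5-fold, the adaptor gene Pycard. Nlrp3, the sensor of membrane damage, had 9.59 in LysM(+) and 10.05 in TB/TB, a difference of -0.46. Pycard, encoding ASC, the adaptor that links sensors to caspase-1, had 10.91 in LysM(+) and 10.22 in TB/TB, 1.61-fold higher in LysM(+). After loess the Pycard difference was 0.586, only just past the threshold of 0.585. Casp1, the protease, had 13.91 in LysM(+) and 14.09 in TB/TB. Nlrp3 and Casp1 thus leaned lower while Pycard was higher. The DNA sensor Aim2 had 8.75 in LysM(+) and 8.56 in TB/TB, and Nlrc4, the sensor that works with NAIP proteins, had 8.53 in LysM(+) and 8.66 in TB/TB. Nod1 and Nod2, receptors for fragments of bacterial cell wall, were dim. Nod1 had 7.20 in LysM(+) and 7.08 in TB/TB, and Nod2, at 6.76 in LysM(+) and 6.69 in TB/TB, lay within the range of the background controls. Mavs, the mitochondrial adaptor of RIG-I-like receptors, had 12.39 in LysM(+) and 12.17 in TB/TB.

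Some partners of these receptors differed more than any receptor in the group did. Among 12 measured inflammasome partners and products, 10 had lower values in LysM(+) (83.3%, against 50.7% of all named genes). Their median difference was -0.36. Past 1.5-fold was 1 gene, 9.09% of the 11 at the floor, against 16.1% of all genes at the floor. That gene was Naip5, which recognises flagellin for NLRC4, with 11.20 in LysM(+) and 12.43 in TB/TB, 2.36-fold lower in LysM(+). Its relatives Naip2 (-0.34) and Naip6 (-0.41) differed less; Naip genes are close copies, and signal may be shared between their probes. Naip5 thus differed where its partner Nlrc4 (-0.13) hardly did. Of 10 other nucleic acid sensors, all at the floor, 3 passed 1.5-fold either way (30%, against 16.1% of all genes at the floor). Cgas, the cytosolic DNA sensor that makes cGAMP, had 8.07 in LysM(+) and 6.85 in TB/TB, 2.33-fold higher in LysM(+). Zbp1, a sensor of Z-form nucleic acid, had 7.15 in LysM(+) and 8.12 in TB/TB, 1.96-fold lower in LysM(+), and Ifi204, a DNA sensor of the AIM2-like family, differed by -0.59, just past the threshold, and by -0.58 after centring, just short of it. Sting1, which acts on the cGAMP made by the Cgas product, differed by -0.23, so sensor and effector did not move together.

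In the lists for NF-kB control, TLR inhibitors, other co-receptors and TLR folding, median differences ran from -0.15 to 0.19. Of 15 genes of the IKK complex, TAK1 and NF-kB feedback, 1 passed 1.5-fold: Tnip3, an inhibitor of NF-kB, at 2.03-fold higher in LysM(+), and the list's median difference was 0.19. Of 10 TLR inhibitors, Trafd1 and Sigirr, which restrain TLR signalling, were 1.64-fold and 1.63-fold lower; Sigirr in LysM(+), at 6.62, was within the background control range. Of 10 other co-receptors, Clec4e, the receptor for mycobacterial cord factor, was 1.67-fold lower. Of 9 genes of TLR folding and endosomal supply, 0 passed 1.5-fold, with differences from -0.26 to 0.22. In that order, 6.67%, 22.2%, 11.1% and 0% of the lists' genes at the floor passed 1.5-fold either way. The share over all genes at the floor was 16.1%.

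Genes that TLR signalling is known to induce went both ways. Of 23 measured, 17 reached the floor; 4 were at least 1.5-fold higher in LysM(+), 2 lower by that fold, and the median difference of -0.03 was 0.01 under another scaling. The 6 genes make 35.3% of the 17, against 16.1% of all genes at the floor. The inflammatory cytokine gene Tnf had 11.47 in LysM(+) and 10.19 in TB/TB, 2.43-fold higher, with Cxcl2, Il10 and Ccl4 between 1.52-fold and 1.62-fold higher; Ccl4 (0.53) no longer passed 1.5-fold with quantile normalization, nor did Ccl4 (0.52) and Il10 (0.58) with loess. Saa3 and Acod1 were 1.63-fold and 1.52-fold lower. Of 18 interferon response genes, 16 reached the floor. At least 1.5-fold lower were 9 (56.2% of the 16, against 5.16% of all genes at the floor), 0 were higher by that fold (against 10.9%), and the median was -0.63. Of the 9, Ifit2, at 5.93 in LysM(+) and 6.52 in TB/TB, lay within the background control range on both arrays. Its difference of -0.590 was just past the threshold. The count of 9 was 8 after centring and 10 after quantile normalization or loess. The lists are set beside the pattern recognition genes for comparison, and neither list's part in their differences was tested. Both lists were chosen with earlier results of these data known.

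**Figure D3:**
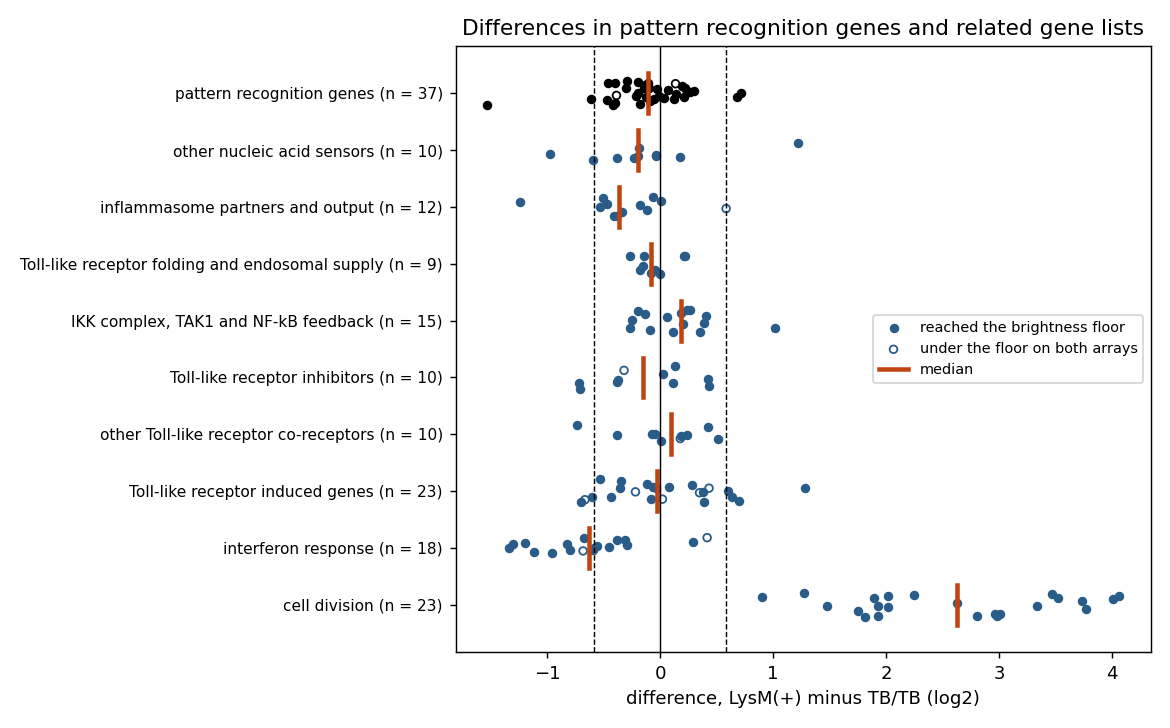
LysM(+) minus TB/TB (log2, x axis) for every measured gene of the pattern recognition group and of 9 related lists; each point is a gene, open where both values were under the brightness floor, and red bars are medians. The pattern recognition genes centre at -0.11, between the interferon response list at -0.63 and the cell division list at 2.63; dashed lines mark 1.5-fold.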

How the data were processed

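RNA of 2 macrophage cultures was hybridised to whole-transcript GeneChips, 1 array per genotype label. Per the labels and the submitters' processing notes, the authors made the deposited values with RMA in Affymetrix Expression Console, with versions not given in the sources used here. All deposited values were taken as log2 from the method's name; they reach 19.5, higher than is usual for RMA, so every fold rests on that reading. Depth has no meaning for arrays, and the number of arrays limits precision.

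The platform annotation named 1 gene for 19572 of 28846 probe sets, updated by Entrez ID to RefSeq GRCm38.p6, giving 19505 genes; probe sets of a gene were averaged. Each of the 37 genes had 1 probe set. A gene was called at a difference of at least 1.5-fold where its brighter value reached 6.12. No test was run. Genes named are all members and, per related list, up to 4 called genes each way; other genes were chosen after their values were seen, among them Sting1, Naip2 and Naip6. The members and lists were chosen with earlier results of these data known. The kappa B pattern was tightened after a looser pattern matched 50.8% of promoters. Calling and motif search were tested on simulated data (Python 3.11.15, pandas 2.3.3, statsmodels 0.14.6). The simulated differences were well above the threshold with little noise, so that check does not bear on calls near the threshold. The alternatives tried were centring, quantile normalization, loess (span 0.4), the brightest probe set, other floors and 2-fold.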

Additional observations from a re-analysis of the deposited data

How the results depend on the processing

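Tab3, Pycard, Aoah and Tlr9 kept their direction and stayed past 1.5-fold under centring, quantile normalization, loess, the brightest probe set and each other floor. Only quantile normalization and loess could have changed these calls. Each gene had 1 probe set, centring moved every difference by 0.0062, and both values lay above every floor tried. Pycard came nearest to the threshold, at 0.586 with loess against 0.585, and Tlr9 lay between -0.70 and -0.61 over the scalings. At 2-fold, 0 members were higher and 1 was lower, Aoah. The median over the 37 genes was -0.19 with quantile normalization and -0.18 with loess. The median of the endosomal receptors, close to 0, changed sign to -0.024 with quantile normalization and to -0.024 with loess. Among related lists, centring left 1 lower call in other nucleic acid sensors, since Ifi204 no longer passed. Quantile normalization and loess each gave 1 higher call in inflammasome partners, Mefv (0.66 in each). The deposited values of Mefv, 6.11 in LysM(+) and 5.52 in TB/TB, lay within the range of the background controls. Higher calls in TLR induced genes were 3 with quantile normalization, without Ccl4, and 2 with loess, without Ccl4 and Il10. Lower calls in the interferon response list were 8 with centring and 10 with quantile normalization or loess; the cause was not tested. The alternatives for roles and lists were chosen after seeing the data. Tlr5, Tlr12 and Nod2 were too near background to compare. No paired analysis was possible because each group had 1 array and the labels give no replicate numbers.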
